A study of Solanum tuberosum with 72 samples.

Results

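GCVT carries the name of the T protein of the glycine decarboxylase complex of plant mitochondria. LPD2 carries that of a lipoamide dehydrogenase, the kind of enzyme that the complex holds as its L protein. Both genes were found by name: the spots of the array whose gene symbol, or RefSeq synonym, was GCVT (symbol LOC102602939, synonyms GCVT and GDCST) or LPD2. The rule reads names alone, but these genes were taken up with earlier results of these data known. It gave 2 of the 197 genes that carried a gene name, on 4 spots. The 4 spots form 2 clones, 1 per gene and each printed at 2 places, among 11037 clones with a value. Both clones had a value at both spots on all 72 arrays. The RefSeq table that supplied the symbols places neither gene on a chromosome, so no position is given.

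The complex takes glycine, which forms in photorespiration when Rubisco fixes oxygen in place of carbon dioxide, and splits it into carbon dioxide, ammonia and a carbon unit bound to folate. The P protein decarboxylates glycine, the H protein carries the rest on its lipoyl arm, the T protein passes the carbon unit to tetrahydrofolate and frees the ammonia, and the L protein, a lipoamide dehydrogenase, reoxidizes the arm and makes NADH. Serine hydroxymethyltransferase then joins the carbon unit to a further glycine to make serine. The complex is abundant in green leaves and is also needed for folate-bound carbon in tissues without photosynthesis. Lipoamide dehydrogenase is shared with pyruvate dehydrogenase and with 2-oxoglutarate dehydrogenase, so it is no marker of glycine decarboxylase alone. Plastids hold a lipoamide dehydrogenase of their own, and the symbol LPD2 does not say which of these proteins it stands for.

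The arrays compared seedlings of the potato (Solanum tuberosum) variety Gilroy, grown from true seed on hydroponic rafts for 5 weeks at 25 °C with 16 h of light and 8 h of dark. Fresh medium at 4 °C with the boxes on ice (cold), at 35 °C with the boxes in a water bath (heat), with added NaCl (salt) or without a stress was then given for 3, 9 or 27 h. The salt dose is written as 150 mM in the name of the RNA source and as 100 mM where the treatment is described, and which was used is not known here. Leaves and roots were the 2 tissues, although the account of the harvest speaks of aerial tissue, which can hold stems as well as leaves. The 24 groups of tissue, treatment and time held 3 arrays each. A sample pooled 6 plants from 2 boxes, the reference RNA pooled 6 boxes of unstressed plants of the same tissue and time, and the labels say that the work was done independently 3 times. Every group, the no-stress group too, had its medium changed and was set against such a reference.

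The values are log2 ratios of the query RNA (Cy3) over the reference RNA (Cy5), with no dye swap, so there is no level of a gene and none was compared between GCVT and LPD2, or between tissues. The direction is not written in the deposited table and is taken as likely from the naming of the channels. If it were the other way round, each higher and lower here would trade places. A difference from no stress is the mean log2 ratio of the stress arrays less that of the matching no-stress arrays (same tissue, same time), which removes a constant effect of dye and reference. It was called lower or higher where limma's moderated test gave a Benjamini-Hochberg adjusted p under 0.05 over all clones tested in that comparison. Adjusted p-values below are limma's unless an exact permutation test is named, and SE is the standard error of that fit. The 3 stresses of a tissue share their no-stress arrays, so their differences are not independent of each other. RNA came from whole leaf or root samples, in which fewer cells of a type and less RNA per cell cannot be told apart.

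Both genes had lower ratios in stressed than in unstressed seedlings in every tissue, stress and time. All 18 differences of GCVT and all 18 of LPD2 were below 0, and none was called higher. GCVT was called lower in 6 comparisons and LPD2 in 8, against a share of all clones called lower that ran from 0.0318% to 18.6% across the 18 comparisons. The arrays of the stress group and of the no-stress group did not overlap in 15 comparisons for GCVT and in 14 for LPD2, always with the stress arrays lower. Over all clones and the 18 comparisons together, 15.3% had all stress arrays below all no-stress arrays, from 8.05% in leaf heat at 9 h to 25.4% in root cold at 27 h. Of the 6140 clones with a value on every array, 0.407% did so in 14 or more comparisons and 0.13% in 15 or more, and the median clone did so in 2. GCVT fell most in roots under heat and in leaves under salt, both at 27 h. LPD2 fell most in leaves under cold and salt, and in roots its calls were under cold at all 3 times and under heat at 27 h.

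**Figure D1:**
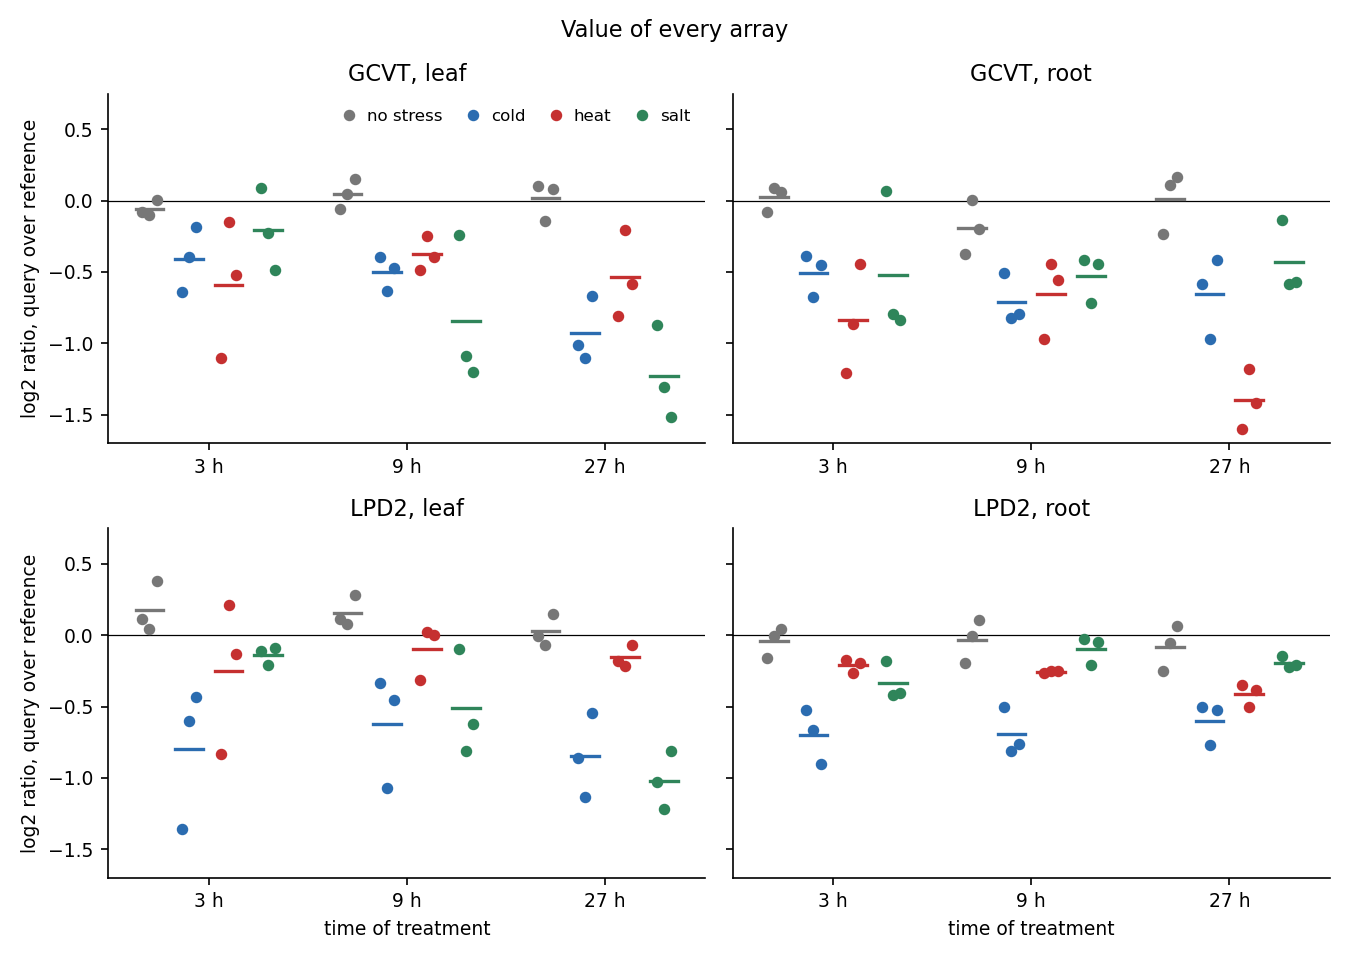
Log2 ratio (query over reference, vertical axis) of GCVT (top) and LPD2 (bottom) on every leaf (left) and root (right) array, by time of treatment. Each point is 1 array, and the short lines are means of 3 arrays. The no-stress points lie around 0, the GCVT points of root heat at 27 h lie at -1.18 or lower, and the LPD2 points of root cold lie at -0.50 or lower.

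Without stress both genes stayed near the reference. In leaves, GCVT lay at -0.08, -0.10 and 0.0005 after 3 h, -0.06, 0.05 and 0.15 after 9 h, and then 0.10, -0.14 and 0.08 after 27 h. In roots it lay at -0.08, 0.09 and 0.06, -0.38, 0.0005 and -0.20 and -0.23, 0.11 and 0.16 at the same times, and the 9 h roots were the lowest of these groups. LPD2 lay at 0.11, 0.04 and 0.38, 0.11, 0.08 and 0.28 and -0.01, -0.07 and 0.15 in leaves. Its unstressed leaves were a little above the reference on 7 of 9 arrays. Unstressed roots gave LPD2 values of -0.16, -0.01 and 0.04, -0.19, -0.01 and 0.10 and -0.25, -0.05 and 0.06. None of the 6 group means of either gene was called different from 0, in comparisons in which 0.0613%, 0.747% and 0.00985% of all clones were at 3, 9 and 27 h in leaves, with 5.06%, 3.28% and 1.44% in roots. The adjusted p was at least 0.502 for GCVT and 0.651 for LPD2.

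GCVT, the T protein, was called lower in cold leaves at 27 h alone, although its values were lower at all 3 times. The 3 arrays at 3 h gave -0.64, -0.40 and -0.18, those at 9 h -0.40, -0.63 and -0.47, and those at 27 h -1.01, -1.10 and -0.67. Every cold array lay below every no-stress array of its time, and the 27 h arrays were the lowest. The differences from no stress were -0.35 (adjusted p = 0.317) at 3 h and -0.55 (adjusted p = 0.0765) at 9 h, neither of which passed the test. With only the compared arrays in the fit, the 9 h difference passed (limma adjusted p = 0.0366). At 27 h the difference was -0.94 (SE 0.22, limma adjusted p = 0.00289), or 52% of no stress, and it was called with any 1 of the 6 arrays left out. Of all clones, 6.93%, 10.5% and 10.1% were called lower at 3, 9 and 27 h. Quantile normalization of the arrays took the 27 h value to -0.77 and its adjusted p to 0.0568. Averaged over the 3 times the difference was -0.61 (SE 0.13, limma adjusted p = 0.000307), a comparison in which 20.0% of all clones were called lower.

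In hot leaves GCVT was below its no-stress arrays at each time, without a call at any of them. The arrays at 3 h read -1.10, -0.15 and -0.52, at 9 h -0.48, -0.25 and -0.40 and at 27 h -0.81, -0.21 and -0.59. Replicate 1 was the lowest and replicate 2 the highest at all 3 times, and none of these arrays overlapped with no stress. The differences were -0.53 (adjusted p = 0.334), -0.42 (adjusted p = 0.625) and -0.55 (adjusted p = 0.296) at 3, 9 and 27 h. Few clones were called lower in hot leaves at all, 0.297%, 0.0318% and 0.211% at these times. Over the 3 times together GCVT fell to 70.6% of no stress (95% interval 58.9 to 84.7%), a log2 difference of -0.50 (SE 0.13, limma adjusted p = 0.0143), with 3.8% of all clones called lower. This call ended without the replicate 1 arrays, at -0.36 (adjusted p = 0.0806), and without the replicate 3 arrays, at -0.46 (adjusted p = 0.17).

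Salt brought the lowest GCVT values in leaves. At 3 h they were 0.09, -0.23 and -0.48, and the groups overlapped. At 9 h they were -0.24, -1.09 and -1.20, and at 27 h -0.87, -1.30 and -1.51. From 9 h on no salt array overlapped with no stress, and replicate 1 was the highest salt array at each time. The difference was -0.15 (adjusted p = 0.944) at 3 h, -0.89 (SE 0.22, limma adjusted p = 0.0118) at 9 h and -1.25 (SE 0.22, limma adjusted p = 0.000315) at 27 h. The clones called lower were 0.0525%, 3.76% and 6.09% of all tested. At 27 h GCVT stood at 42.2% of no stress (95% interval 30.8 to 57.8%), and only 0.787% of clones had a value as low or lower. The 27 h call held with each of the 6 arrays left out. The 9 h call did not: its adjusted p was 0.0561 without no-stress replicate 3, 0.0835 without salt replicate 2 and 0.0767 without salt replicate 3. With only the arrays of the 9 h comparison in the fit the adjusted p was 0.0785. The mean over times was -0.76 (SE 0.13, limma adjusted p = 6.62e-05), with 11.9% of clones called lower.

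In cold roots GCVT fell by a similar amount at all 3 times. The ratios were -0.39, -0.68 and -0.45 after 3 h, -0.51, -0.82 and -0.80 after 9 h, and then -0.59, -0.97 and -0.41 after 27 h. Each of these 9 arrays lay below each no-stress array of its time. The single-time differences were -0.53 (adjusted p = 0.0982), -0.52 (adjusted p = 0.0711) and -0.67 (adjusted p = 0.0121), of which only the last was called, while 6.99%, 12.3% and 18.6% of all clones were called lower. The 27 h call ended without cold replicate 2 (-0.51, adjusted p = 0.0858), without no-stress replicate 3 (-0.60, adjusted p = 0.0538) and under quantile normalization (-0.40, adjusted p = 0.119). With the fit limited to the arrays compared, the 3 h and 9 h differences passed as well, at adjusted p = 0.0357 and 0.038. Over the 3 times the value was -0.57 (SE 0.12, limma adjusted p = 0.000326), or 67.2% of no stress. Here 20.9% of clones were called lower, and 7.64% had a value at or below that of GCVT. Without the replicate 2 arrays it was -0.41 (adjusted p = 0.0651).

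Heat gave the lowest GCVT values in roots. The arrays read -1.21, -0.86 and -0.44 after 3 h, -0.97, -0.44 and -0.56 after 9 h, and then -1.60, -1.18 and -1.42 after 27 h. No heat array overlapped with no stress at its time, and replicate 1 was the lowest at each time. The difference was -0.86 (SE 0.21, limma adjusted p = 0.0111) at 3 h, -0.47 (adjusted p = 0.211) at 9 h and -1.41 (SE 0.21, limma adjusted p = 3.95e-05) at 27 h. The share of clones called lower was 3.4%, 2.11% and 9.91%. At 27 h GCVT was at 37.6% of no stress (95% interval 27.9 to 50.7%), with 1.72% of clones as low or lower, and the call held with any of the 6 arrays left out. At 3 h it did not hold without heat replicate 1 (-0.68, adjusted p = 0.0887), nor with only the compared arrays in the fit (adjusted p = 0.061). Averaged over times, GCVT fell to 53.1%, -0.91 (SE 0.12, limma adjusted p = 2.30e-06), a comparison with 16.6% of clones called lower. Without the replicate 1 arrays this average was -0.86 (adjusted p = 7.45e-05).

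In salt-treated roots GCVT was called lower on average over the times and was not called at any single time. Its values were 0.07, -0.80 and -0.84 after 3 h, -0.41, -0.72 and -0.45 after 9 h, and then -0.14, -0.59 and -0.57 after 27 h. Replicate 1 was the highest salt array at each time, and at 3 h and 27 h it lay within the range of the no-stress arrays. The differences were -0.55 (adjusted p = 0.0629), -0.33 (adjusted p = 0.436) and -0.44 (adjusted p = 0.339). Of all clones, 9.41%, 1.29% and 0.713% were called lower. The 3 h value passed the test without salt replicate 1, at -0.84 (adjusted p = 0.00452), and with array weights, at -0.65 (adjusted p = 0.0268). The average over times was -0.44 (SE 0.12, limma adjusted p = 0.00792), or 73.7% of no stress, with 11.8% of clones called lower. It lost its call without the replicate 2 arrays (-0.28, adjusted p = 0.285) and without the replicate 3 arrays (-0.35, adjusted p = 0.147).

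LPD2, the lipoamide dehydrogenase, was called lower in cold leaves at every time. Its ratios were -1.36, -0.60 and -0.44 after 3 h, -0.34, -1.07 and -0.45 after 9 h, and then -0.86, -1.14 and -0.54 after 27 h. All 9 cold arrays lay below all no-stress arrays of their time, although at 3 h and 9 h 1 array was far lower than the others. The differences were -0.98 (SE 0.23, limma adjusted p = 0.00375), -0.78 (SE 0.23, limma adjusted p = 0.0152) and -0.87 (SE 0.23, limma adjusted p = 0.00748). Of all clones 6.93%, 10.5% and 10.1% were called lower at these times, and 1.15%, 4.37% and 3.35% were as low as LPD2 or lower. None of the 3 LPD2 calls held with every array left out in turn. The 3 h value was -0.70 (adjusted p = 0.0603) without cold replicate 1. The 9 h value was -0.55 (adjusted p = 0.124) without cold replicate 2 and -0.72 (adjusted p = 0.059) without no-stress replicate 3. The 27 h value was -0.73 (adjusted p = 0.0525) without cold replicate 2. The mean over times was -0.88 (SE 0.13, limma adjusted p = 5.61e-06), which put LPD2 at 54.5% of no stress (95% interval 45.1 to 65.9%). In that mean 20.0% of clones were called lower.

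Hot leaves showed no call for LPD2. Its values were -0.84, 0.21 and -0.14 after 3 h, -0.32, 0.02 and 0 after 9 h, and then -0.18, -0.22 and -0.07 after 27 h. Replicate 1 at 3 h was far below the rest, and the groups overlapped at 3 h and 27 h. The differences were -0.43 (adjusted p = 0.505), -0.26 (adjusted p = 0.839) and -0.18 (adjusted p = 0.829). Their mean was -0.29 (SE 0.13, limma adjusted p = 0.192), with a 95% interval of -0.56 to -0.01 for this value alone, and it passed only under quantile normalization (-0.36, adjusted p = 0.0478).

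In salt-treated leaves LPD2 was lowest at 27 h. The arrays gave -0.11, -0.21 and -0.09 after 3 h, -0.10, -0.81 and -0.62 after 9 h, and then -1.03, -1.22 and -0.81 after 27 h. The groups did not overlap at any of these times. The differences were -0.31 (adjusted p = 0.815), -0.67 (adjusted p = 0.0759) and -1.04 (SE 0.23, limma adjusted p = 0.00285), and the 27 h call held with any of its 6 arrays left out. LPD2 was then at 48.5% of no stress, where 6.09% of all clones were called lower and 1.64% were as low as LPD2 or lower. Without salt replicate 1 the 9 h value was -0.87 and passed (adjusted p = 0.0298), and it also passed with array weights (-0.75, adjusted p = 0.00347). The mean over times was -0.67 (SE 0.13, limma adjusted p = 0.000458), with 11.9% of clones called lower.

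Cold was the stress under which LPD2 changed in roots at all times. The cold arrays read -0.52, -0.67 and -0.90 after 3 h, -0.50, -0.81 and -0.76 after 9 h, and then -0.50, -0.77 and -0.52 after 27 h. None reached the lowest no-stress array of its time, and the spread within a group was small. The differences were -0.66 (SE 0.11, limma adjusted p = 0.000142), -0.66 (SE 0.11, limma adjusted p = 4.43e-05) and -0.52 (SE 0.11, limma adjusted p = 0.000488). Of all clones 6.99%, 12.3% and 18.6% were called lower at these times, and 6.27%, 7.72% and 15.2% had a value at or below that of LPD2. All 3 LPD2 calls held with each of the 6 arrays of the comparison left out in turn. Under quantile normalization the 27 h value shrank to -0.25 and was not called (adjusted p = 0.113). The mean over times was -0.61 (SE 0.06, limma adjusted p = 9.99e-09), 65.5% of no stress (95% interval 59.7 to 71.7%). In that mean 20.9% of clones were called lower, and 6.93% were as low as LPD2 or lower.

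Heat moved LPD2 little in roots. Its values were -0.17, -0.27 and -0.19 after 3 h, -0.27, -0.25 and -0.25 after 9 h, and then -0.35, -0.50 and -0.39 after 27 h. The heat arrays lay close together and just below the no-stress arrays, with no overlap. The difference was -0.17 (adjusted p = 0.385) at 3 h, -0.23 (adjusted p = 0.265) at 9 h and -0.33 (SE 0.11, limma adjusted p = 0.0354) at 27 h. The 27 h value was not called when a single array was taken out: -0.36 (adjusted p = 0.0715) and -0.29 (adjusted p = 0.111) with heat replicates 1 and 2 out, -0.32 (adjusted p = 0.0956) and -0.26 (adjusted p = 0.159) with no-stress replicates 2 and 3 out. Taking out heat replicate 3 or no-stress replicate 1 kept the call. It also ended under quantile normalization (-0.20, adjusted p = 0.233), with array weights (-0.36, adjusted p = 0.0505), on the second spot alone (-0.33, adjusted p = 0.0588) and in the fit of the compared arrays alone (adjusted p = 0.201). The mean over times was -0.24 (SE 0.06, limma adjusted p = 0.00447), 84.5% of no stress. It was -0.20 (adjusted p = 0.127) without the replicate 2 arrays and -0.19 (adjusted p = 0.106) without the replicate 3 arrays. Of all clones 9.91% were called lower at 27 h and 16.6% in the mean, and 19.5% and 18.4% were as low as LPD2 or lower.

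Salt gave LPD2 no call in roots. The arrays read -0.18, -0.42 and -0.40 after 3 h, -0.03, -0.21 and -0.04 after 9 h, and then -0.14, -0.23 and -0.21 after 27 h, and only the 3 h arrays were clear of the no-stress arrays. The differences were -0.29 (adjusted p = 0.0601), -0.06 (adjusted p = 0.831) and -0.11 (adjusted p = 0.726). The 9 h value turned above 0 on the second spot alone and without no-stress replicate 3. The 3 h value passed without salt replicate 1 (-0.37, adjusted p = 0.0339) and on the second spot alone (-0.33, adjusted p = 0.0496). The mean over times was -0.16 (SE 0.06, limma adjusted p = 0.0746), with a 95% interval of -0.29 to -0.02. It passed without the replicate 1 arrays, at -0.28 (adjusted p = 0.0116).

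**Figure D2:**
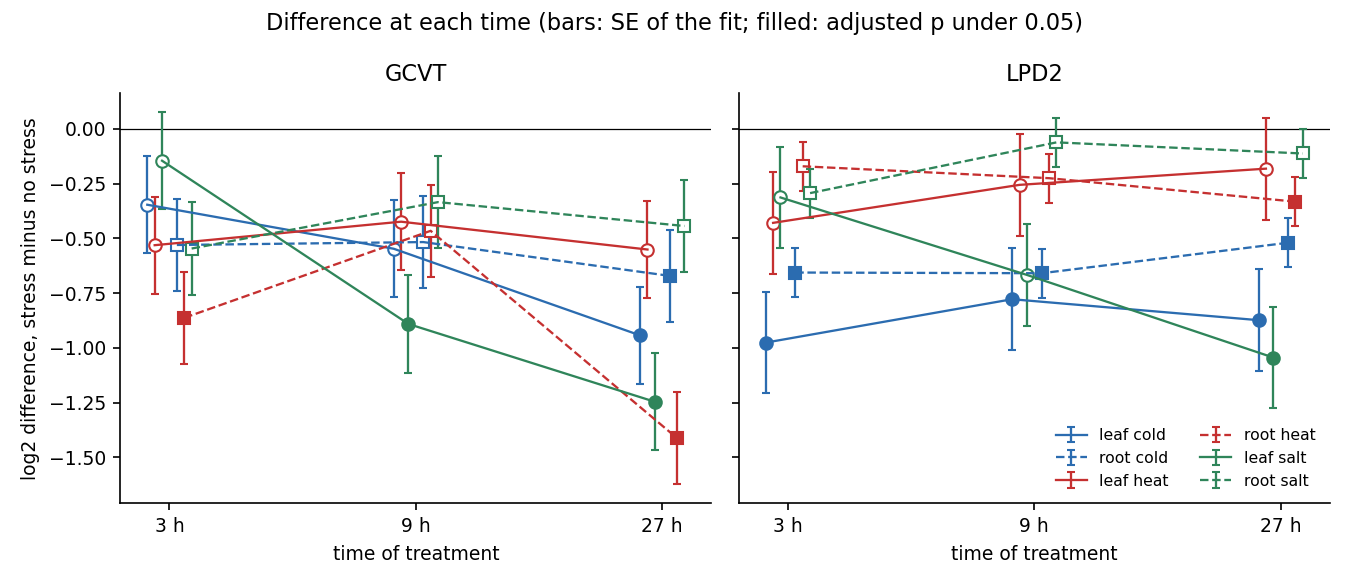
Difference from no stress (log2, vertical axis) of GCVT (left) and LPD2 (right) at 3, 9 and 27 h for each stress, with solid lines and circles for leaves and dashed lines and squares for roots. Bars are standard errors of the fit, and filled marks had an adjusted p under 0.05. All points lie below 0, with GCVT of root heat at 27 h lowest at -1.41.

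Whether the differences grew with time was tested on the effect at 27 h less the effect at 3 h, and neither gene was called in any of the 6 tests. The largest value was that of GCVT in salt-treated leaves, -1.10 (SE 0.31, limma adjusted p = 0.231). Of all clones 1.37% were called for leaf cold, 0.0% for leaf heat and 0.128% for leaf salt, against 21.4% for root cold, 0.172% for root heat and 2.89% for root salt. GCVT gave -0.60 (adjusted p = 0.383) in cold leaves and -0.55 (adjusted p = 0.47) in hot roots, and LPD2 gave -0.73 (adjusted p = 0.559) in salt-treated leaves. In the other comparisons the value of either gene lay between -0.16 and 0.25. The later fall of GCVT in cold and in salt-treated leaves that the plot of differences by time shows is therefore not a called change. With array weights it passed in both, at -0.76 (adjusted p = 0.0394) and -0.99 (adjusted p = 0.0472).

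The order of the stresses was not the same for the 2 genes. By mean over times GCVT was lowest in root heat (-0.91), then leaf salt (-0.76), leaf cold (-0.61), root cold (-0.57), leaf heat (-0.50) and root salt (-0.44). LPD2 was lowest in leaf cold (-0.88), then leaf salt (-0.67), root cold (-0.61), leaf heat (-0.29), root heat (-0.24) and root salt (-0.16). Root heat thus came first for GCVT and next to last for LPD2.

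**Figure D3:**
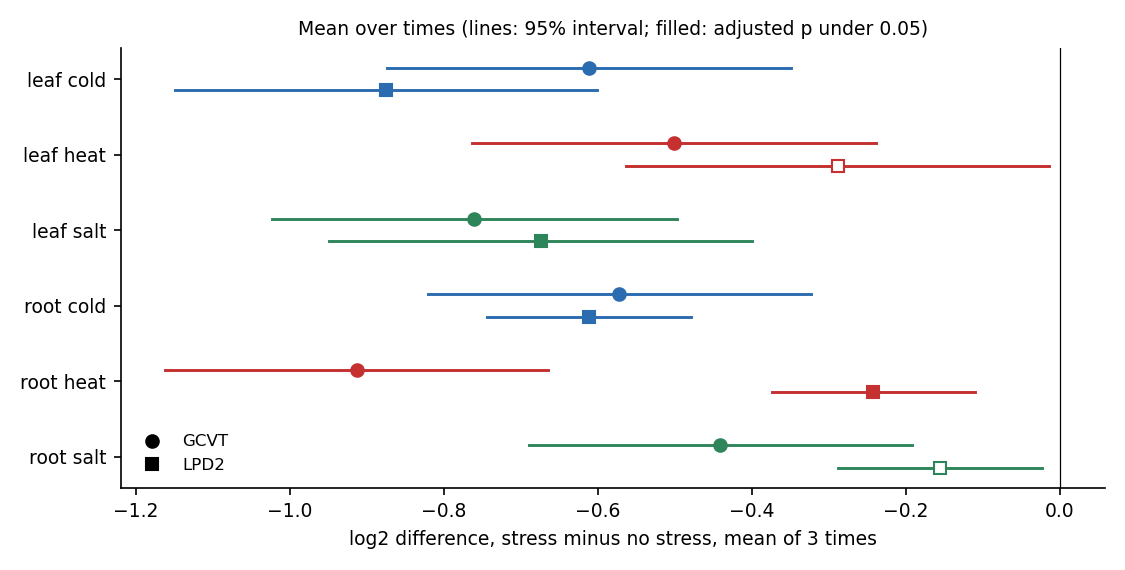
Difference from no stress averaged over 3, 9 and 27 h (log2, horizontal axis) for each tissue and stress, with circles for GCVT and squares for LPD2. Lines are 95% intervals of the single value, and filled marks had an adjusted p under 0.05. In root heat the interval of GCVT lies wholly below that of LPD2, from -1.16 to -0.66 against -0.37 to -0.11.

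In roots, tests of one stress against another were called for both genes, in opposite directions for cold against heat. GCVT was 0.34 (SE 0.12, limma adjusted p = 0.0188) in cold less heat, so it was lower in heat, while LPD2 was -0.37 (SE 0.06, limma adjusted p = 2.14e-05), so it was lower in cold. In that test 27.1% of all clones were called higher in cold and 27.8% lower. The GCVT difference rested on 1 replicate: it was 0.13 (adjusted p = 0.326) without the replicate 1 arrays, 0.39 (adjusted p = 0.0581) without replicate 3, and 0.23 (adjusted p = 0.0942) with array weights. The LPD2 difference was called in each of these settings. Heat less salt was -0.47 (SE 0.12, limma adjusted p = 0.0025) for GCVT, with 21.0% of clones called lower, and it too fell to -0.16 (adjusted p = 0.256) without the replicate 1 arrays. The same test gave -0.09 (adjusted p = 0.29) for LPD2. Cold less salt was -0.46 (SE 0.06, limma adjusted p = 1.33e-06) for LPD2, with 23.6% of clones called lower, and -0.13 (adjusted p = 0.394) for GCVT.

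In leaves, LPD2 separated heat from the other stresses. Cold less heat was -0.59 (SE 0.13, limma adjusted p = 0.000656) for LPD2, with 23.3% of clones called lower, and heat less salt was 0.39 (SE 0.13, limma adjusted p = 0.0311), with 14.3% called higher. Without the replicate 2 arrays these were -0.41 (adjusted p = 0.0532) and 0.20 (adjusted p = 0.431), and the second was 0.36 (adjusted p = 0.201) without replicate 3. It also missed the threshold under quantile normalization and on the second spot alone, at adjusted p = 0.062 and 0.0507. GCVT gave -0.11 (adjusted p = 0.505) for cold less heat and 0.26 (adjusted p = 0.135) for heat less salt. Cold less salt, in which 23.2% of clones were called, gave 0.15 (adjusted p = 0.443) for GCVT and -0.20 (adjusted p = 0.305) for LPD2. Without replicate 1, GCVT was 0.39 (adjusted p = 0.0201) for cold less salt and 0.62 (adjusted p = 0.000415) for heat less salt, and without replicate 3 the first of these was -0.09.

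Leaf and root were compared by the difference between the 2 mean effects. LPD2 fell more in leaves than in roots under salt, with a difference of -0.52 (SE 0.15, limma adjusted p = 0.0346) and 2.01% of clones called lower. This call ended without any 1 replicate number, at -0.49 (adjusted p = 0.0894) without replicate 1, -0.53 (adjusted p = 0.231) without replicate 2 and -0.54 (adjusted p = 0.236) without replicate 3, and on the first spot alone (adjusted p = 0.0512). For cold the difference was -0.26 (adjusted p = 0.225) for LPD2 and -0.04 (adjusted p = 0.907) for GCVT. For heat it was -0.05 (adjusted p = 0.932) for LPD2 and 0.41 (adjusted p = 0.272) for GCVT. GCVT under salt gave -0.32 (adjusted p = 0.374), with a 95% interval of -0.68 to 0.04. Of all clones 20.0% were called in the cold test, 1.63% in the heat test and 4.13% in the salt test.

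The 2 genes were also set against each other within each array, as the GCVT log2 ratio less that of LPD2. An effect of equal size on both genes of an array drops out of this, and a shared effect of unequal size does not. This test was chosen after the values had been seen. In roots the mean of this quantity was -0.0001 on the 9 no-stress arrays, -0.67 on the 9 heat arrays, -0.29 on the salt arrays and 0.04 on the cold arrays. Under heat GCVT was thus lower relative to LPD2, by -0.67 (two-sided exact permutation test within times, p adjusted over 6 tests = 0.0045), and under salt by -0.29 (exact permutation, adjusted p = 0.024). Cold gave 0.04 (exact permutation, adjusted p = 0.591). In leaves the quantity was -0.12 without stress, 0.14 in cold, -0.33 in heat and -0.21 in salt. Cold moved it up by 0.26 (exact permutation, adjusted p = 0.0428) and heat moved it by -0.21 (exact permutation, adjusted p = 0.025), while salt gave -0.09 (exact permutation, adjusted p = 0.591). The test exchanges the arrays of a time freely and takes the times as independent. With stress and no-stress arrays exchanged only within a time and a replicate number, root heat kept its call (exact permutation of 9 pairs, adjusted p = 0.0469, with the value below 0 in 8 of 9 pairs), while root salt (adjusted p = 0.0586), leaf heat (adjusted p = 0.0703) and leaf cold (adjusted p = 0.0938) lost theirs. A test over the 3 replicate numbers alone cannot give a p under 0.25. The root heat value was -0.97, -0.58 and -0.47 in replicates 1, 2 and 3. The smallest p of the first test is 0.00025. With 1 replicate left out it is 0.00926, and no adjusted p passed then: in root heat the value ran from -0.77 to -0.52, with adjusted p between 0.0556 and 0.111. On single spots the leaf cold value lost its call (adjusted p = 0.0533 and 0.066), as did that of leaf heat on the second spot (adjusted p = 0.0679).

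Of the enzymes that work beside GCVT, the array named serine hydroxymethyltransferase (SHMT), catalase (CAT1, which breaks down the hydrogen peroxide that peroxisomes form in photorespiration) and a glutamine synthetase (gln, of a family that refixes ammonia, with no compartment given by the symbol). They were measured on 5 clones, and no clone carried the symbol of the P or H protein. SHMT had a value on 1 leaf array and on 35 of 36 root arrays, so it was tested in roots alone. Its values in hot roots were -1.81, 0.42 and 0.10 after 3 h, -1.49, -0.07 and -0.20 after 9 h, and then -3.40, -0.43 and -0.85 after 27 h. Replicate 1 was by far the lowest at each time. SHMT was called lower in root heat at 27 h, -1.73 (SE 0.52, adjusted p = 0.0206), and over the 3 times, -0.996 (SE 0.30, adjusted p = 0.0118), and in no other root comparison. Of all clones 9.91% and 16.6% were called lower in these 2 comparisons. Without heat replicate 1 the 27 h value was -0.81 (adjusted p = 0.269), and without the replicate 1 arrays the mean was -0.41 (adjusted p = 0.0327). Without those arrays the mean in cold roots passed as well, at -0.65 (adjusted p = 0.000758). At 27 h in hot roots GCVT and SHMT were both lower, and for GCVT the 3 arrays were closer together.

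CAT1 had 3 clones, 1 of them with too few values for most tests. The second was called lower in leaf cold at 9 h, -1.40 (SE 0.50, adjusted p = 0.044), and the third in the means of leaf cold, -0.29 (SE 0.08, adjusted p = 0.00374), and root cold, -0.46 (SE 0.14, adjusted p = 0.0102). The gln clone went the other way in part: it was called higher in leaf cold at 9 h, 0.53 (SE 0.19, adjusted p = 0.0474), and in root salt at 3 h, 0.95 (SE 0.21, adjusted p = 0.00186). Over the times it was called higher in the means of leaf cold, 0.36 (SE 0.11, adjusted p = 0.01), and root salt, 0.36 (SE 0.12, adjusted p = 0.0272), and lower in that of root heat, -0.32 (SE 0.12, adjusted p = 0.0397). Across the 18 single-time comparisons these other photorespiratory clones gave 2 calls lower and 2 higher, with 3 clones tested in leaves and 4 or 5 in roots. In these comparisons 0.0318% to 18.6% of all clones were called lower and 0.148% to 20.4% higher, so the few calls are given as a description. Their median difference ranged from -0.47 in root heat at 9 h to 0.11 in root salt at 3 h, while the median of all clones lay between -0.01 and 0.02.

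Of the complexes that share lipoamide dehydrogenase, the array named the E1 alpha subunit of pyruvate dehydrogenase (PDHE1-A, the subunit that decarboxylates pyruvate), on 2 clones. Only 1 of its clones was called in a single-time comparison, in leaf cold at 27 h, where it was higher, 0.47 (SE 0.12, adjusted p = 0.00524), and the other clone gave 0.16 (SE 0.16, adjusted p = 0.524). LPD2 was lower there, at -0.87. In the means over times the first PDHE1-A clone was called higher in leaf cold, 0.25 (SE 0.07, adjusted p = 0.00416), and lower in root heat, -0.18 (SE 0.06, adjusted p = 0.0323), and the second was called in neither. Of all clones 11.4% were called higher in leaf cold at 27 h, 21.5% higher in the mean of leaf cold and 16.6% lower in that of root heat. In cold roots, where LPD2 was called at each time, PDHE1-A was not called.

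Genes of carbon reduction and export in chloroplasts were called lower 37 times over the 18 comparisons. The list held 8 clones of TPT (the triose phosphate translocator), TK (transketolase), RPE (ribulose-phosphate epimerase) and FBPase (fructose-1,6-bisphosphatase, whose symbol does not separate the chloroplast from the cytosolic enzyme), and none was called higher at any time. Called lower were 3, 7 and 2 of the 8 at 3, 9 and 27 h in leaf cold, 0 at each time in leaf heat, and 0, 2 and 3 in leaf salt. In roots they were 0, 6 and 6 in cold, 0, 2 and 5 in heat, and 1, 0 and 0 in salt. The share of all clones called lower was 6.93%, 10.5% and 10.1% in leaf cold, at most 0.297% in leaf heat, and 0.0525%, 3.76% and 6.09% in leaf salt. In roots it was 6.99%, 12.3% and 18.6% in cold, 3.4%, 2.11% and 9.91% in heat, and 9.41%, 1.29% and 0.713% in salt. The median difference of the list was -0.82 in leaf cold at 9 h and -0.97 in root cold at 9 h. In root heat at 27 h the clones called lower included TK at -1.01 (SE 0.28, adjusted p = 0.0115) and FBPase at -0.90 (SE 0.24, adjusted p = 0.0103). Each value is that of 1 clone, and both genes had another. The mean log2 ratio of the other TK clone was -0.72 there and -0.002 without stress. The list's median there was -0.81, and without heat replicate 1 it was -0.58 with 0 of 8 called, while GCVT was -1.31 (adjusted p = 0.000774).

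Other mitochondrial genes of carbon and electron transport had 27 calls in the higher direction and 2 in the lower over the 18 single-time comparisons. Across these comparisons 0.148% to 20.4% of all clones were called higher and 0.0318% to 18.6% lower. The list held 9 clones of aconitase, formate dehydrogenase (FDH), alternative oxidase (AOX), the uncoupling protein (UCP), malate dehydrogenase (mMDH) and TYKY2 (a subunit of respiratory complex I). Aconitase, FDH and UCP had more than 1 clone each, and a value given under these names is that of 1 clone. In leaf cold at 27 h 6 of the 9 were called higher and 0 lower, with a median of 0.70, where 11.4% of all clones were called higher. FDH, which oxidizes formate, was higher there at 1.05 (SE 0.28, adjusted p = 0.00729), and UCP at 0.80 (SE 0.16, adjusted p = 0.000707). In leaf salt at 27 h (5.77% of all clones higher) 2 of 9 were higher, both of them FDH, as 1.04 (SE 0.28, adjusted p = 0.012). In root cold at 27 h (20.4% of all clones higher) 3 of 9 were higher, with Aconitase at 1.01 (SE 0.17, adjusted p = 3.32e-05). In root heat at 27 h (10.1% of all clones higher) 2 of 9 were higher, with TYKY2 at 0.52 (SE 0.12, adjusted p = 0.0042). The calls in the lower direction were of Aconitase in root heat at 9 h, -0.76 (SE 0.17, adjusted p = 0.00831), and of UCP in root salt at 3 h, -0.53 (SE 0.14, adjusted p = 0.00638). In the means over times both directions were called in some comparisons: 6 of 8 tested clones higher and 1 lower in leaf cold, 3 higher and 3 lower in root heat, and 3 higher and 1 lower in root salt. Of all clones 21.5%, 17.9% and 14.4% were called higher in these 3 means and 20.0%, 16.6% and 11.8% lower. In root heat both UCP clones and 1 Aconitase clone were lower, while both FDH clones and TYKY2 were higher. The other means had 1 of 9 higher in leaf heat, 3 of 9 in leaf salt and 2 of 8 in root cold, with 0 lower, where 4.68%, 10.9% and 22.0% of all clones were higher.

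Likeness was measured by Pearson's r of the mean log2 ratios over the 24 groups, among 164 named genes with a value in every group, as a description: groups of a tissue and of a time share references and stresses. GCVT was most like agpS3 (a small subunit of ADP-glucose pyrophosphorylase, the enzyme of the first step of starch synthesis) with r = 0.91, TK with 0.79, RPE with 0.75, THF1 with 0.69 and LPD2 with 0.69. LPD2 was most like TK with 0.87, THF1 with 0.86, RPE with 0.82, eIF-5A-3 (a translation factor) with 0.76 and TPT with 0.75, although the other TPT clone had an r of 0.13. Between GCVT and LPD2 the r of 0.69 was exceeded by 102 of 7763 other clones with GCVT and by 336 with LPD2.

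Within 12 leaf groups the r of GCVT with LPD2 was 0.85, and within 12 root groups it was 0.51. In leaves 1.57% of other clones were more like GCVT than LPD2 was, and in roots 9.59%. The leaf list for GCVT was led by PIN-II (a proteinase inhibitor) with 0.94, whose 4 clones went down to 0.02, and IAA2 (an auxin response repressor) with 0.92, and that for LPD2 by TK with 0.93, TPT with 0.91 and RPE with 0.90. In roots GCVT was most like agpS3 with 0.96, SHMT with 0.90, SGA with 0.85, RPE with 0.81 and GAPDH with 0.80, although another GAPDH clone had 0.09. LPD2 was most like cab1 (a chlorophyll-binding protein of the light-harvesting antenna) with 0.95, TK with 0.92, HRBP1 with 0.89, RPE with 0.86 and isi1 with 0.84.

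The root values of agpS3 show this likeness. In heat they were -1.30, -0.59 and -0.33 after 3 h, -1.17, -0.67 and -0.58 after 9 h, and then -1.69, -1.20 and -1.27 after 27 h. As with GCVT, the 27 h arrays were the lowest group, and replicate 1 was the lowest array at each time.

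**Figure D4:**
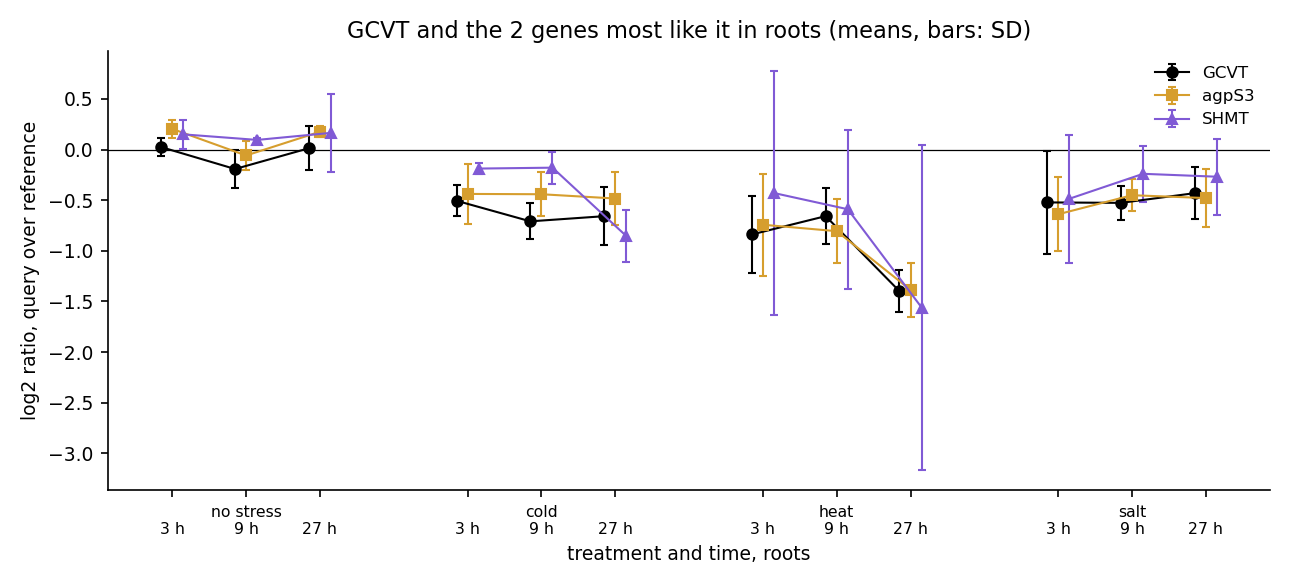
Mean log2 ratio in roots (vertical axis) of GCVT and the 2 named genes most like it there, agpS3 and SHMT, by treatment and time. Bars are SD over the arrays of a group. At 27 h of heat all 3 means lie at -1.39 or lower, and the SD of SHMT is the widest.

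Root samples can hold shoot tissue, and the sign of this would be photosynthesis genes. The list held 15 clones of cab1, PSBO, PSBR and psbP, 7 of which had a value on all root arrays. As only ratios were deposited, their level in roots was not seen, and no defining marker could be checked for being at or near 0. The median of the clones with a value on a root heat array was -1.12, -0.27 and -0.01 after 3 h, -1.14, 0.38 and -0.05 after 9 h, and -3.01, -0.67 and -0.99 after 27 h. On root cold arrays it was -1.01, -0.25 and -0.39 after 3 h, -1.25, -1.15 and -0.60 after 9 h, and -2.42, -2.13 and -1.43 after 27 h. On root salt arrays it was -0.35, -0.64 and -0.50 after 3 h, -0.57, -0.41 and -0.04 after 9 h, and -0.25, -0.03 and -0.12 after 27 h. The no-stress roots stayed between -0.29 and 0.30. These medians rest on 8 to 15 clones, depending on the array. By them each replicate number of cold and of heat was lowest at 27 h, and replicate 1 was the lowest array of each cold and heat group. All 3 salt arrays at 3 h and 2 at 9 h lay below the no-stress range. Called lower were 3 of 12, 6 of 13 and 11 of 14 tested clones in root cold at 3, 9 and 27 h, with 2 higher at 27 h, 0 of 13, 0 of 14 and 8 of 14 in root heat, and 0 at each time in root salt, with 2 of 13 higher there at 3 h. The share of all clones called lower in these comparisons was 6.99%, 12.3% and 18.6% in cold and 3.4%, 2.11% and 9.91% in heat, and in root salt at 3 h 12.1% were called higher. In root heat at 27 h 3 of 14 were lower without heat replicate 1, 11 of 13 without replicate 2 and 8 of 13 without replicate 3. The 3 were cab1 clones, at -2.43, -2.11 and -1.71 (limma adjusted p = 0.00158, 0.0051 and 0.0105). The remaining cab1 clone was at -1.58 (adjusted p = 0.0563). The mean of root heat had 8 of 13 lower with all arrays. Without the replicate 1 arrays it had 0 of 7 lower, but those 7 were PSBR and psbP clones, and no cab1 clone was tested. Without those arrays the mean of root cold had 6 of 8 lower and 2 higher. Most photosynthesis clones tested in cold roots, where LPD2 was called at each time, were still called lower with those arrays left out. In hot roots at 27 h without heat replicate 1, GCVT was -1.31, and the cab1 clones lay between -2.43 and -1.58. The PSBR clones ran from -0.66 to 0.07 there and the tested PSBO and psbP clones from -1.02 to -0.76, none of them called. Without all replicate 1 arrays, the mean of hot roots over times was -0.86 for GCVT and -0.33 (adjusted p = 0.00393) for LPD2. The part of the photosynthesis genes in the root values of GCVT and LPD2 was not tested. On the 7 clones present on all root arrays the median over an array ran from -0.93 to -0.08 in cold, -1.23 to 0.40 in heat, -0.45 to 0.43 in salt and -0.34 to 0.59 without stress. Those 7 include no cab1 clone. By their median replicate 1 was the highest cold array at 9 h (-0.08, against -0.29 and -0.30) and the lowest in the other cold and heat groups. Heat replicate 1 at 9 h was -0.04 by this median. Of the salt arrays only replicate 1 at 3 h (-0.45) lay below the no-stress range.

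**Figure D5:**
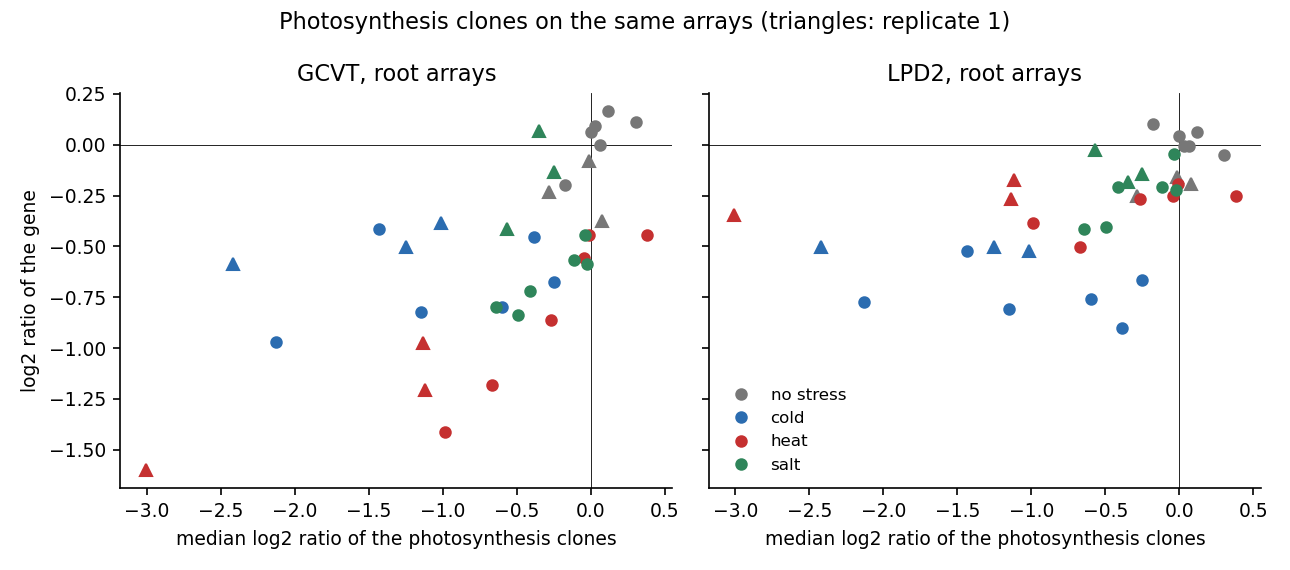
Log2 ratio of GCVT (left) and LPD2 (right) on each root array (vertical axis) against the median log2 ratio of the photosynthesis clones with a value on that array (horizontal axis). Triangles are replicate 1, and the median rests on 8 to 15 clones, depending on the array. The leftmost point is heat replicate 1 at 27 h. The photosynthesis medians at 27 h of heat are -3.01, -0.67 and -0.99, with GCVT at -1.60, -1.18 and -1.42. On heat replicate 1 at 3 h and 9 h they are -1.12 and -1.14, with GCVT at -1.21 and -0.97. The other heat arrays have medians between -0.27 and 0.38, and GCVT lies between -0.86 and -0.44.

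As to the arrays themselves, 15580 to 20545 of 32448 spots had a value on an array, and the number of arrays limits the precision. The 2 spots of a clone gave an r over arrays of 0.98 for GCVT and 0.96 for LPD2, with a mean absolute difference of 0.08 for each and a maximum of 0.31 and 0.60. The lowest correlation between any pair of the 72 arrays was -0.33, the only 1 of 2556 pairs under -0.3. That pair was replicate 2 of leaf heat at 9 h and replicate 3 of leaf cold at 27 h. The direction was kept as the channel names give it, and the cause of this correlation was not tested.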

How the data were processed

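The authors deposited log2 ratios, 1 per spot and array, of 72 two-colour cDNA arrays, 36 for leaves and 36 for roots. Per the labels, the query carried Cy3 and the reference Cy5. For background correction, normalization and the spot filter, the method was not given in the sources used here. The deposited values between -1 and 1 equal the log2 of a ratio rounded to 2 decimals within 0.0015, and array medians lay between 0 and 0.014.

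Clones were paired from the spot order, which follows 48 blocks of 26 by 26 spots. In each of the 905 pairs with annotation both spots had identical accessions, and the pair was averaged. Gene names came from the platform annotation, with symbols updated from the RefSeq table. The groups came from the sample titles in the labels.

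Differences were fitted with limma 3.58.1 (R 4.3.3) over the 36 arrays of a tissue, or all 72 arrays for leaf less root, on clones with a value on at least 2 of 3 arrays in each group compared. P-values were two-sided and adjusted by Benjamini-Hochberg within a comparison, with 0.05 as the threshold. The fit was tested on simulated data. The labels do not say whether the 3 independent runs shared seed or RNA handling, so p-values measure the spread between these samples.

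GCVT, LPD2 and the gene lists were chosen with earlier results of these data known. Lists were matched by symbol. Genes most like each member were the 5 with the highest r, 1 clone per gene, and up to 4 genes per list were named, those with the most calls. Alternatives were single spots, other scalings, array weights, a replicate block, stress arrays against 0, other filters and left-out arrays. Promoter motifs and sequences were not analysed here.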

Additional observations from a re-analysis of the deposited data

Results flagged for a closer look

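The salt effect on LPD2 differed between leaf and root, by -0.52 on the log2 scale for leaf less root (limma, adjusted p = 0.0346). It is set out here because the difference between tissues was itself tested and passed. LPD2 was lower on all 9 salt-treated leaf arrays and on all 9 salt-treated root arrays relative to the reference, but so it was on 2 of 9 unstressed leaf arrays and 6 of 9 unstressed root arrays. The mean difference from no stress was -0.67 in leaves and -0.16 in roots. The call ended with any replicate number left out, and the causes were not tested.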

How the results depend on the processing

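Limits first: each comparison rests on 3 arrays a group, there was no dye swap, the direction of the ratio is taken from the channel names, each gene is 1 clone, and spot signals over background were not used here, so the depth behind a ratio is unknown. Shifts of the array scale moved the median of all clones by at most 0.03. The array medians already lay between 0 and 0.014, so this shift does not show how single clones respond to scaling. Under quantile normalization the clones called at 27 h went from 2077 to 975 in leaf cold and from 64 to 428 in leaf heat. GCVT at 27 h was then -0.77 in leaf cold and -0.40 in root cold, and neither was called. LPD2 at 27 h was -0.25 in root cold and -0.20 in root heat, and neither was called.

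The labels do not say that a replicate number marks a shared run, and not every pair passed the correlation of 0.1 set for treating numbers as pairs. Of 54 pairs of same-numbered arrays, 44 had deviations correlated above 0.1 (lowest -0.06, median 0.23, highest 0.54), and 45 of 54 were most alike with their own number, a hint from the data that numbers share something. All 9 pairs were above 0.1 in leaf salt and in root cold, and 6 or 7 of 9 in the other stresses. With the replicate block, GCVT was -0.61 in leaf cold averaged over times (limma, adjusted p = 0.000446), and no call changed among 78 differences of GCVT and LPD2 tested with limma. For GCVT less LPD2 within an array the block ended the calls of leaf cold (0.26), leaf heat (-0.21) and root salt (-0.29).

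Averages over times changed as follows. Under quantile normalization LPD2 in leaf heat was -0.36 and passed (adjusted p = 0.0478). Against 0 in place of no stress, LPD2 in root salt was -0.21 and passed, and GCVT had 16 single-time calls, not 6. This setting keeps a constant effect of dye and reference. More of all clones were called lower against 0 at every time, from 248 of 10176 in leaf heat to 2547 of 9187 in root cold, both at 27 h. With no stress subtracted these were 21 of 9934 and 1660 of 8938. In the root salt mean 2185 of 8586 were called lower against 0 and 992 of 8385 with no stress subtracted. With a replicate left out, GCVT ranged from -0.68 to -0.36 in leaf heat, from -0.73 to -0.41 in root cold and from -0.70 to -0.28 in root salt. LPD2 ranged from -0.33 to -0.19 in root heat and from -0.28 to -0.0887 in root salt.

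For leaf less root, LPD2 under salt was -0.52 on the first spot (adjusted p = 0.0512) and ranged from -0.54 to -0.49 without a replicate. LPD2 under heat ranged from -0.22 to 0.16 and GCVT under cold from -0.18 to 0.15, and both changed sign.

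For 27 h less 3 h, array weights gave GCVT -0.76 in leaf cold and -0.99 in leaf salt, both passing, and LPD2 -0.25 in leaf cold, a reversal. GCVT also reversed in leaf heat on the second spot (0.057), and under quantile normalization in root cold (0.0586) and root salt (-0.0491). Without a replicate, GCVT in leaf heat ranged from -0.0843 to 0.0455, LPD2 in leaf cold from -0.15 to 0.37 and LPD2 in leaf heat from -0.0132 to 0.53. LPD2 in root salt at 9 h reversed on the second spot (0.00867) and without no-stress replicate 3, and with 1 array left out it ranged from -0.14 to 0.00667.

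Between stresses, GCVT leaf cold less heat was 0.16 under quantile normalization, a reversal, and LPD2 leaf heat less salt was 0.32 there and 0.36 on the second spot, both short of the threshold. GCVT root cold less heat was 0.23 with array weights. Without a replicate, GCVT ranged in leaves from -0.22 to 0.0878 for cold less heat, -0.0897 to 0.39 for cold less salt and 0.054 to 0.62 for heat less salt. In roots it ranged from 0.13 to 0.51 for cold less heat and -0.64 to -0.16 for heat less salt. LPD2 in leaves ranged from -0.68 to -0.41 for cold less heat and 0.20 to 0.60 for heat less salt.

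GCVT less LPD2 within an array was 0.25 and 0.27 in leaf cold on the first and second spot and -0.19 in leaf heat on the second, all short of the threshold. With a replicate taken out, leaf cold lay at 0.24 to 0.28, leaf heat at -0.26 to -0.18 and leaf salt at -0.21 to 0.0555. For roots the range was -0.0586 to 0.14 with cold, -0.77 to -0.52 with heat and -0.42 to -0.17 with salt. Only 216 arrangements remained then, with a smallest p of 0.00926. These settings were chosen after the data were seen. The cause of these changes was not tested.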
